A study of Homo sapiens with 2 samples.

Results

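HSP90 folds and stabilizes kinases, steroid receptors and other client proteins, and it works with a set of partner proteins called co-chaperones. The 10 genes AHSA1, CDC37, STIP1, PTGES3, FKBP4, FKBP5, PPID, CHORDC1, STUB1 and SUGT1 were chosen by name as established HSP90 partners. All 10 were found among the 36601 genes of the deposited matrices, and all 10 were among the 12128 genes with 50 or more molecules over both libraries. Single-cell RNA-seq profiles came from 1 library of SP11-treated cells (0.8 µM, 48 h) and 1 library of untreated control cells. The study describes SP11 as an HSP90 inhibitor, and both libraries carry the label MOLT4, a T-cell acute lymphoblastic leukemia line. With 1 library in each group no difference has a replicate check, so no test between groups was made and no p-value is given. Every value compares these libraries and not the conditions.

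A co-chaperone binds HSP90 at a particular step of its cycle of ATP binding and hydrolysis. STIP1 bridges HSP70 to HSP90, CDC37 brings protein kinases, AHSA1 speeds ATP hydrolysis, and PTGES3, also known as p23, holds the closed form. FKBP4, FKBP5 and PPID are peptidyl-prolyl isomerases found in steroid receptor complexes, where FKBP5 lowers the hormone response of the glucocorticoid receptor and is itself a target of that receptor. CHORDC1 and SUGT1 bind HSP90 through CS domains and CHORD motifs, and STUB1 is a ubiquitin ligase for chaperone-bound proteins. HSF1, the heat shock transcription factor, is known to induce many chaperones when HSP90 is inhibited, and it binds inverted repeats of the letters GAA called heat shock elements.

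The SP11 library held 864 barcodes, of which 852 passed limits of at least 200 genes and at most 20% mitochondrial molecules, and the control library held 1076, of which 1053 passed. The study names these limits and states fewer kept cells, by a wider margin in control, and the sources do not give a further filter. Kept cells had a median of 10488.5 unique molecular identifiers (UMIs, tags that each mark 1 captured molecule) in SP11 and 17711 in control. Levels are each gene's share of all molecules in a library's kept cells, on the CPM scale. Of 21 T-lineage markers, 14 were at 0 in SP11 and 11 in control, where 3 counts amount to 0.316 CPM and 0.155 CPM. CD3D, CD3G, TRBC1 and TRBC2, parts of the T-cell receptor complex, were at 0 in both libraries. The 14 granulocyte precursor and monocyte markers summed to 2208 CPM in SP11 and 2715 CPM in control, so the data went against the MOLT4 label and the cells are called here by their library. MPO, CD14 and CSF1R of this list were low, at 0.526, 2.11 and 2.32 CPM in SP11 and 0.155, 0.155 and 0.465 CPM in control. Of the 11 markers of the list that were measured, 4 were at least 1.5-fold higher in SP11 and 5 lower. Of all measured genes 10.7% were higher and 38.4% lower by that size. S100A8 was at 219 CPM in SP11 and 4.95 CPM in control, and AZU1 at 94.2 CPM in SP11 and 437 CPM in control. The median mitochondrial share of a cell was 5.51% in SP11 and 8.94% in control. The part of these differences in the ratios below was not tested. The libraries shared 109 kept barcodes; values without these are given below. Of the 12128 measured genes, the median log2 ratio of SP11 to control CPM was -0.35.

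Heat shock elements were looked for in the RefSeq promoters (GRCh38.p14), 250 bases before to 50 after each start, because HSF1 binds such letters. Windows were found for 8 of the 10 co-chaperones, 11 windows in all. FKBP4 and STUB1 had no window, so they were not searched. A pair of neighbouring units in opposite orientation reads as TTCNNGAA or GAANNTTC, both of which read the same on either strand, and 13.5% of 35116 promoter windows held one. A run of 3 alternating units, TTCNNGAANNTTC or GAANNTTCNNGAA, was in 0.490% of the windows. STIP1, CHORDC1 and SUGT1, the co-chaperones with the highest ratios below, were the 3 of the 8 with at least a 2-unit match. The stretches are shown with the matching letters in capitals, since no window of the other members that had one held a match.
CHORDC1: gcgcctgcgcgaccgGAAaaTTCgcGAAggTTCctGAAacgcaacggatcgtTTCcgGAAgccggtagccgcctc
STIP1: cttctagtaggTTCcaGAAggcggcgcgtg
SUGT1: gtgtttctccaGAAgtTTCccccttgggcg

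The CHORDC1 stretch covers chr11:90223050-90223124 on the minus strand and ends 1 base before the RefSeq start. It holds 5 alternating units in a row, 60 to 38 bases before the start, which 4 of the 35116 windows matched. A further 2-unit match begins 23 bases before the start, and another lies farther upstream in the window, outside the stretch shown. The STIP1 stretch lies at chr11:64186173-64186202 on the plus strand, with its 2-unit match 13 to 20 bases after the second of 2 annotated starts. SUGT1 has its match 5 to 12 bases after the start, at chr13:52652830-52652859 on the plus strand. Among measured genes that are not co-chaperones, the 1242 with at least 2 units had a median log2 ratio of -0.30, against -0.29 for 7856 genes without. Of those with a match 149 were at least 1.5-fold higher, beside 11.1% of those without. The 42 genes with at least 3 units had a median of -0.33. A match to these letters is a description and shows no binding.

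The co-chaperones did not move as a block. SUGT1, STIP1 and CHORDC1 were at least 1.5-fold higher in SP11 and FKBP5 was at least 1.5-fold lower, while FKBP4, PPID, STUB1, AHSA1, CDC37 and PTGES3 lay between. These 3 and 1 of the 10 stand beside 10.7% of all measured genes past that size upward and 38.4% downward. Relative to the median gene 4 of the 10 were at least 1.5-fold higher, with FKBP4 added, and 1 lower, beside 22.5% and 24.3% of all measured genes. The median log2 ratio of the 10 was 0.20, with 0.06 and 0.34 as the medians of the lower and upper interval bounds, and 9 of the 10 lay above the median gene. Intervals in this text are 95% and cover counting error only, not the spread between cultures. Because levels are shares of a library's molecules, more RNA of a gene per cell and less of the other RNA cannot be told apart.

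**Figure D1:**
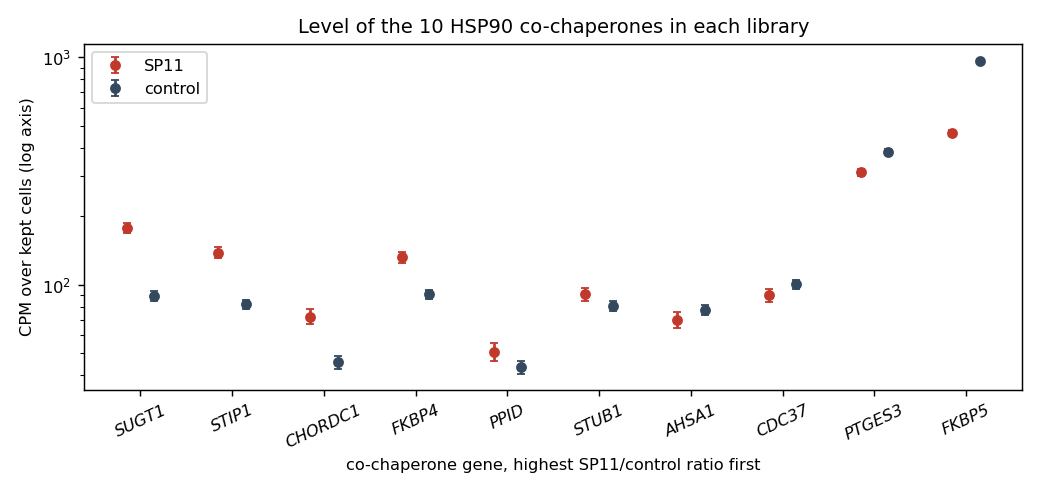
CPM of each co-chaperone over kept cells on a log axis, with 1 point for the SP11 library and 1 for the control library and exact 95% Poisson intervals as bars. SUGT1 lies at 178 CPM in SP11 and 89.3 CPM in control at the left end, and FKBP5 at 466 CPM in SP11 and 961 CPM in control at the right end.

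STIP1, the adaptor between HSP70 and HSP90, was at 138 CPM in SP11 (131 to 146) and 82.0 CPM in control (78.0 to 86.1). Its log2 ratio was 0.75 (0.65 to 0.86), higher than 92.7% of measured genes. CDC37, the kinase adaptor, was at 90.0 CPM in SP11 and 101 CPM in control, a log2 ratio of -0.16 (-0.28 to -0.05). AHSA1, the ATPase activator, was at 70.1 CPM in SP11 and 77.8 CPM in control, a log2 ratio of -0.15 (-0.28 to -0.02). PTGES3 was at 312 CPM in SP11 and 384 CPM in control, a log2 ratio of -0.30 (-0.36 to -0.24). These last 3 genes, which act on kinases, on ATP hydrolysis and on the closed state, thus lay slightly below control in CPM and above the median gene by 0.19, 0.20 and 0.05 on the log2 scale, and with TMM or DESeq2 factors all 3 lay above control.

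The isomerases spanned the widest range. FKBP4, also called FKBP52, was at 132 CPM in SP11 (125 to 140) and 90.9 CPM in control (86.7 to 95.3), a log2 ratio of 0.54 (0.43 to 0.64). FKBP5, or FKBP51, was at 466 CPM in SP11 (453 to 480) and 961 CPM in control (947 to 975), a log2 ratio of -1.04 (-1.09 to -0.996). PPID, also called cyclophilin 40, was at 50.7 CPM in SP11 and 43.4 CPM in control, with a log2 ratio of 0.23 (0.06 to 0.39). FKBP4 and FKBP5, closely related proteins, thus stood on opposite sides of control.

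SUGT1 had the highest ratio of the 10, with 178 CPM in SP11 (170 to 187) and 89.3 CPM in control (85.2 to 93.7). Its log2 ratio of 0.99 (0.90 to 1.09) exceeded that of 96.0% of measured genes. CHORDC1, also called morgana, was at 72.3 CPM in SP11 (67.0 to 77.9) and 45.7 CPM in control (42.8 to 48.8), a log2 ratio of 0.66 (0.52 to 0.81). STUB1, or CHIP, was at 90.9 CPM in SP11 and 80.6 CPM in control, a log2 ratio of 0.17 (0.05 to 0.29).

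The summed level of the 10 was 1600 CPM in SP11 (1575 to 1626) and 1955 CPM in control (1936 to 1975). The sum was lower in SP11 while the median gene of the set was higher, because 18615 of the 37888 summed molecules in control were of FKBP5. No single cell carried these levels: the cell with most molecules of FKBP5 held 0.587% of the SP11 total of that gene.

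**Figure D2:**
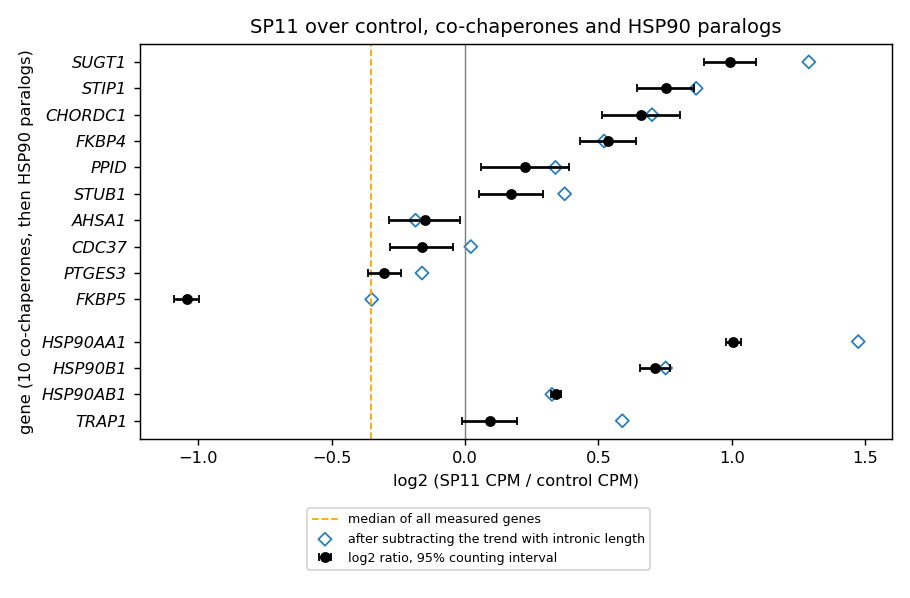
The log2 ratio of SP11 to control CPM for the 10 co-chaperones and the 4 HSP90 paralogs, with exact 95% counting intervals, the median of all measured genes as a dashed line and open diamonds after subtracting the trend with intronic length. FKBP5 moves from -1.04 to -0.35 with that subtraction, and SUGT1, STIP1 and CHORDC1 stay above 0.

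Ratios of measured genes declined with intronic length past the bin of shortest introns, so this was set beside each member. The median log2 ratio was -0.20 in the first bin of 605 genes, whose median was 0 intronic bases, 0.12 in the next bin of 605 genes with a median of 1094 intronic bases and -1.02 where 604 genes had a median of 357856. FKBP5, at chr6:35573585-35728583 on the minus strand (GRCh38, GENCODE 44), holds 144371 intronic bases, and genes of its bin had a median of -0.69. After subtraction its log2 ratio was -0.35, under the 1.5-fold size. SUGT1, at chr13:52652709-52700909, stood at 1.29 after subtraction, STIP1 at 0.87 and CHORDC1 at 0.70. Whether the counts include intronic reads is not given in the sources used, and their part in these ratios was not tested.

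The HSP90 genes themselves gave the scale for their partners. HSP90AA1, the inducible cytosolic form, was at 2133 CPM in SP11 (2104 to 2163) and 1063 CPM in control (1048 to 1077), a log2 ratio of 1.01 (0.98 to 1.03). HSP90AB1, the constitutive cytosolic form, was at 4142 CPM in SP11 and 3268 CPM in control, a log2 ratio of 0.34 (0.32 to 0.36). HSP90B1 of the endoplasmic reticulum had a log2 ratio of 0.71 (0.66 to 0.77) and TRAP1 of mitochondria one of 0.09 (-0.01 to 0.20). SUGT1 was the co-chaperone nearest to HSP90AA1, and the intervals of these 2 ratios overlapped.

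Other gene lists around the HSP90 cycle were chosen with earlier results of these data known, and they are described by counts against the shares of 10.7% and 38.4% above. Of 13 further tetratricopeptide co-chaperones, a class that holds STIP1 too, 4 passed 1.5-fold upward and 2 downward, with a median log2 ratio of 0.13. ST13, which like STIP1 works with HSP70, was at 329 CPM in SP11 and 173 CPM in control, and SGTA was at 51.0 CPM in SP11 and 26.9 CPM in control. At the low end FKBP8, an isomerase of the mitochondrial surface, was at 12.3 CPM in SP11 and 68.5 CPM in control, and SPAG1 had a log2 ratio of -0.70 (-1.15 to -0.27). FKBP8 had a log2 ratio of -2.48 (-2.76 to -2.20), below that of FKBP5.

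Of 16 HSP70 system genes 9 passed 1.5-fold upward and 0 downward, with a median log2 ratio of 0.62. HSPA8, the constitutive HSP70, led them at 1047 CPM in SP11 and 501 CPM in control, and HSPA4L was lowest at 18.6 CPM in SP11 and 27.9 CPM in control. Of 17 measured genes of the HSF1 program 9 were higher and 0 lower, with a median of 0.60, and this list shares genes with the HSP70 system. HSPB1, a small heat shock protein, was at 965 CPM in SP11 and 307 CPM in control. HSPA1A and HSPA1B, the stress-inducible HSP70 genes, were low, at 7.69 and 8.11 CPM in SP11 against 5.06 and 4.70 CPM in control. These 2 genes are near-identical copies, so their counts are uncertain.

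The other lists stood closer to the median gene. Of 6 CS domain co-chaperones, the class of PTGES3 and SUGT1, 0 were at least 1.5-fold higher and 1, NUDCD2, was lower, with a median of -0.01. Of 4 measured kinase and ATPase cycle co-chaperones 0 were higher and 1, FNIP1, was lower, at a log2 ratio of -1.13 (-1.41 to -0.86). Of 7 R2TP and TTT genes 1, RUVBL2, was higher and 1, RUVBL1, was lower, although both proteins form 1 ATPase ring.

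Clients and partners of single members were set beside them. Of 14 measured kinases that need CDC37, 1 was higher and 4 lower, with a median of -0.27. ARAF was at 26.5 CPM in SP11 and 16.1 CPM in control, and CDK6 at 104 CPM in SP11 and 242 CPM in control. Of the 6 ubiquitin-conjugating enzymes that work with STUB1, 0 were higher and UBE2W was lower, at 67.9 CPM in SP11 and 102 CPM in control. Of 8 measured SUGT1 partners, SKP1 was higher at 276 CPM in SP11 and 179 CPM in control and 4 were lower, among them NLRP3, an inflammasome sensor, at 9.90 CPM in SP11 and 21.2 CPM in control. The median log2 ratio of the 8 was -0.52, below that of all measured genes.

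FKBP5 is a known target of the glucocorticoid receptor, and the receptor gene NR3C1 was at 70.9 CPM in SP11 and 67.2 CPM in control, a log2 ratio of 0.08 (-0.06 to 0.21). Of 9 measured targets of that receptor, 4 were at least 1.5-fold higher and 4 lower, beside the same 10.7% and 38.4% of all measured genes. DDIT4 was at 2.42 CPM in SP11 and 25.3 CPM in control, and ZBTB16 at 1.79 CPM in SP11 and 9.29 CPM in control. MT2A, a metallothionein, was at 827 CPM in SP11 and 169 CPM in control, and BIRC3 at 10.3 CPM in SP11 and 2.74 CPM in control. The targets thus did not move in 1 direction.

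The share of cells with a molecule was compared at 1 depth, after thinning each cell to 4400 UMIs, which left out 83 SP11 and 90 control cells. FKBP5 was found in 80.1% of 769 SP11 cells (77.1 to 82.9) and 94.1% of 963 control cells (92.4 to 95.5). SUGT1 was found in 54.4% of SP11 cells (50.8 to 57.9) and in 289 of 963 control cells (27.1% to 33.0%). STIP1 was found in 44.1% of SP11 cells and 28.7% of control cells, and AHSA1 in 26.8% of cells of each library. A median of 4 co-chaperones was detected per thinned cell in both libraries. Without thinning FKBP5 was found in 87.4% of SP11 cells and 94.2% of control cells. No cell type that lacks these genes was at hand to give the share that free RNA adds.

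Cell cycle phase was scored in each library alone, and SP11 held more G2M cells, 42.1% of 852 against 34.7% of 1053 in control. SUGT1 had log2 ratios of 0.98 in G1, 1.02 in S and 0.95 in G2M, and FKBP5 of -1.19, -0.91 and -1.05. STIP1 was higher in G2M than in G1 in both libraries, at 160 against 116 CPM in SP11 and 95.3 against 70.8 CPM in control. PTGES3 was likewise higher in G2M, at 347 against 264 CPM in SP11 and 409 against 346 CPM in control.

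FKBP4 differed between the libraries. It was higher in G2M than in G1 in SP11, at 151 CPM (140 to 163) against 114 CPM (100 to 129), and lower in G2M than in G1 in control, at 85.7 CPM (79.3 to 92.5) against 98.8 CPM (90.3 to 108). Its ratio of SP11 to control was 0.21 on the log2 scale in G1 (-0.02 to 0.43), 0.35 in S (0.16 to 0.55) and 0.82 in G2M (0.66 to 0.97). The higher FKBP4 level of SP11 was thus largest in G2M cells, and its G1 interval included 0.

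**Figure D3:**
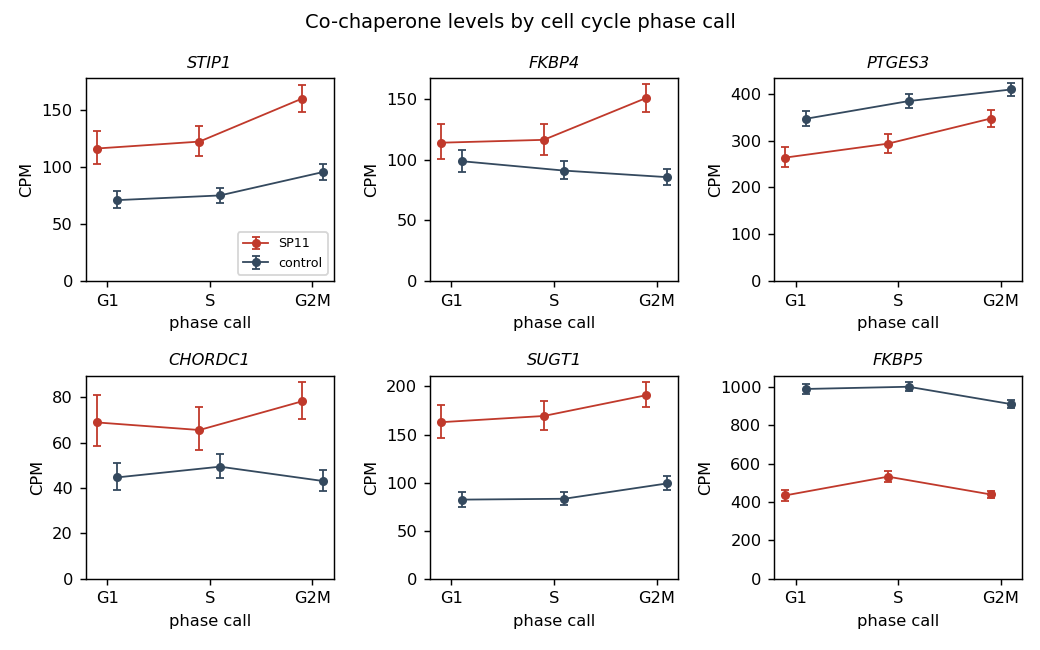
CPM of 6 co-chaperones by phase call (G1, S, G2M) in the SP11 and control libraries, with exact 95% Poisson intervals. FKBP4 reaches 151 CPM in G2M cells of SP11 and 85.7 CPM in G2M cells of control, while FKBP5 is higher in control in every phase.

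Each library was also clustered alone, which gave 6 clusters in each. FKBP5 lay between 275 and 531 CPM in 5 of the SP11 clusters, lowest in 70 cells with a median of 1826 UMIs, and between 603 and 1146 CPM in the 6 control clusters, lowest in 76 cells with a median of 787.5 UMIs. In the remaining SP11 cluster, of 20 cells, it was at 78.8 CPM (49.4 to 119), and the 10 genes summed to 828 CPM against 1524 to 1735 CPM in the other SP11 clusters. AHSA1 at 28.7 CPM (12.4 to 56.5) and FKBP4 at 46.6 CPM (24.8 to 79.7) were also below their library levels in these 20 cells. So were STIP1 at 78.8 CPM (49.4 to 119) and PTGES3 at 158 CPM (115 to 212). CHORDC1 at 46.6 CPM (24.8 to 79.7) and STUB1 at 78.8 CPM (49.4 to 119) were lower too, but their intervals held the library level. SUGT1 at 172 CPM, CDC37 at 89.6 CPM and PPID at 50.2 CPM were close to theirs. Counts were few, with 8 molecules of AHSA1 and 13 of FKBP4. The granulocyte precursor and monocyte markers summed to 7461 CPM there and to 1574 to 2963 CPM in the other SP11 clusters, and their part in these levels was not tested. Without the 20 cells the log2 ratio of FKBP5 was -1.01. Since clusters were made from the same counts, these levels are a description.

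The relation to HSP90AA1 over cells was the other question of the set. Cells thinned to 4400 UMIs were ranked by HSP90AA1 in each library and divided into 4 bands of equal size. HSP90AA1 was at 3211 CPM in the highest and 1052 CPM in the lowest band of SP11, and at 1831 CPM in the highest and 379 CPM in the lowest band of control. The summed co-chaperones were 1.11-fold higher in the highest band of SP11 (1.03 to 1.20) and 1.10-fold higher in that of control (1.03 to 1.17). The median gene with as many molecules had a ratio of 1.03 in SP11 and 1.02 in control. FKBP5 was the largest part of the control sum, at 960 of 2044 CPM in the highest band and 1018 of 1861 CPM in the lowest. In SP11 it was at 511 of 1677 CPM and 468 of 1515 CPM. FKBP5 was the only member lower in the highest band of control, and the others had ratios of 1.04 (SUGT1) to 1.51 (CHORDC1). In SP11 only CDC37 was lower there, at 0.85. The sum without FKBP5 was not computed, so the near-equal ratios of the sum do not describe the other members.

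CHORDC1 had the largest ratio in SP11, at 1.59 (1.05 to 2.42), above 98.7% of 3427 compared genes, and 1.51 in control (0.96 to 2.40). AHSA1 had a ratio of 1.17 in SP11 (0.79 to 1.74) and 1.48 in control (1.06 to 2.07), and PTGES3 one of 1.14 in SP11 (0.96 to 1.37) and 1.38 in control (1.20 to 1.59). FKBP5 gave 1.09 in SP11 (0.95 to 1.25) and 0.94 in control (0.86 to 1.03). SUGT1, whose ratio of SP11 to control was nearest to that of HSP90AA1, gave 1.08 in SP11 (0.86 to 1.36) and 1.04 in control (0.77 to 1.40). The share of G2M cells was 52.6% in the highest and 34.2% in the lowest band of SP11, and 49.2% and 24.9% in those of control. Within G2M cells of SP11 the summed ratio was 0.95 and within S cells of control 0.90, against 1.29 and 1.32 within G1 cells of SP11 and of control, so the sum did not keep its direction within phases.

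**Figure D4:**
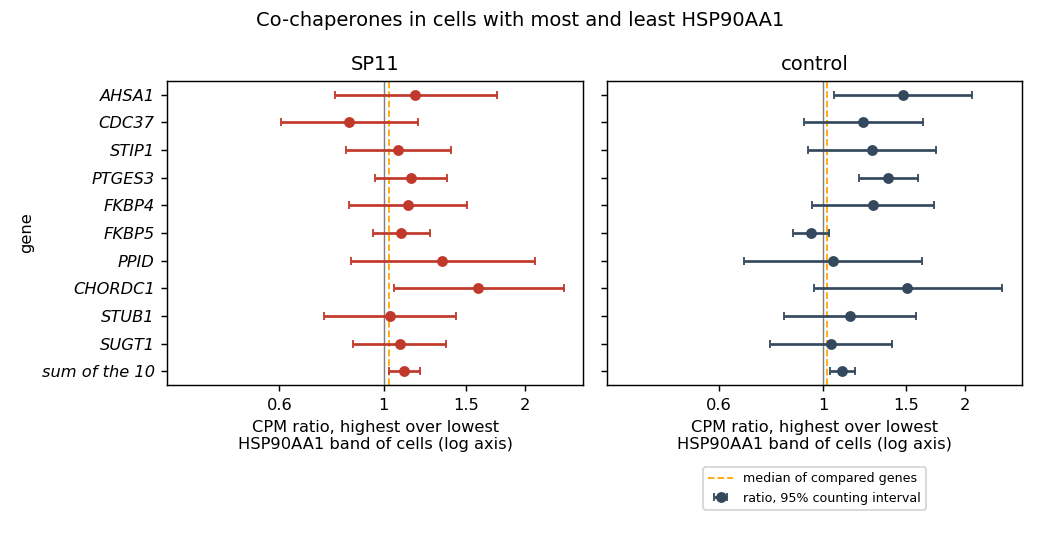
Ratio of CPM in the highest to CPM in the lowest HSP90AA1 band of thinned cells on a log axis, for each co-chaperone and their sum, in SP11 (left) and control (right) with exact 95% counting intervals. The intervals of CHORDC1 in SP11 and of AHSA1 and PTGES3 in control lie above 1, and the sums are 1.11 in SP11 and 1.10 in control.

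Correlations over cells gave the same picture and are a description, since the points share 1 library and 1 depth and counts are sparse. The median Pearson r of the 10 with HSP90AA1 was 0.025 over 769 SP11 cells and 0.029 over 963 control cells, beside 0.013 and 0.004 for the median of compared genes. No member exceeded 0.093 (CHORDC1) in SP11 or 0.124 (PTGES3) in control. Small as they are, these lay above 97.1% of 3427 compared genes in SP11 and 99.0% of 4410 in control. The lowest members were CDC37 in SP11, above 18.1% of compared genes, and FKBP5 in control, above 52.9%. AHSA1 lay above 96.3% in control and 59.0% in SP11, and FKBP4 above 94.1% and 62.3%. HSPA8 reached 0.144 in SP11 and 0.158 in control at the same depth. Among the 45 pairs of members 0 exceeded 0.1 in either library, with medians of 0.010 in SP11 and 0.012 in control. At this depth the 10 genes were not seen to go up and down together from cell to cell.

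Spread between cells was set out for each member. The variance of thinned FKBP5 counts over their mean was 1.44 in SP11 and 1.55 in control, beside 1.06 and 1.05 for the median compared gene, with 0 to 10 molecules per SP11 cell and 0 to 15 per control cell. The other 9 had values of 0.93 to 1.12 in SP11 and 1.03 to 1.14 in control. Counting alone gives a value near 1, and for equal relative spread the measure rises with the mean, which was highest for FKBP5. The excess over 1 divided by the mean was 0.21 for FKBP5 and 0.31 for CDC37 in SP11. In control it was 0.13 for FKBP5 and 0.39 for AHSA1, so FKBP5 was not the highest of the 10 in either library. CDC37 was at 0.16 in control and AHSA1 at -0.17 in SP11, so neither kept its value in the other library. CDC37 averaged 0.38 molecules per SP11 cell and AHSA1 0.33 per control cell, and the error of this measure was not estimated.

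Of 673 genes with 2000 or more molecules in each library, those most like the summed members over cells were SRPK1, HSP90AB1, GLO1, HNRNPU and HSPA8. SRPK1, a kinase of splicing factors, had r of 0.234 in SP11 and 0.285 in control with the sum, and HSP90AA1 was at rank 14 with 0.099 and 0.113. SRPK1, HSP90AB1 and GLO1, a glyoxalase, lie on chromosome 6 with FKBP5, which prompted a look at each gene by its distance from FKBP5, chosen after these values were seen.

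Some genes near FKBP5 on chromosome 6 went up and down with it from cell to cell in both libraries. SRPK1, 0.226 Mb from FKBP5, had r of 0.376 in SP11 and 0.387 in control with FKBP5 alone. GLO1, 3.04 Mb away, had r of 0.233 in SP11 and 0.319 in control, and HSP90AB1, 8.60 Mb away, had 0.268 in SP11 and 0.206 in control. On the other side RPL10A, a ribosomal protein gene 0.181 Mb before FKBP5, had 0.197 in SP11 and 0.227 in control. Of the 12 genes with the highest mean r among 3573, 11 were on chromosome 6, which held 6.13% of those genes.

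The relation had a side and an extent. Of 16 genes up to 5 Mb after FKBP5 (toward the centromere and long arm), 9 had r over 0.05 in both libraries, and of 26 genes 5 to 10 Mb after it 13 did. Of 32 genes up to 5 Mb before it 5 did, and these 5, ZNF76, DEF6, PPARD, FANCE and RPL10A, were the nearest ones, within 0.374 Mb. ANKS1A, next in line at 0.661 Mb before, had r of 0.047 in SP11 and 0.016 in control, and of 36 genes over 5 Mb before 0 had r over 0.05 in both libraries. Of 3354 genes on other chromosomes 3.04% did so, with median r of 0.010 in SP11 and 0.004 in control. Beyond 50 Mb after FKBP5 22 of 89 genes still did.

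**Figure D5:**
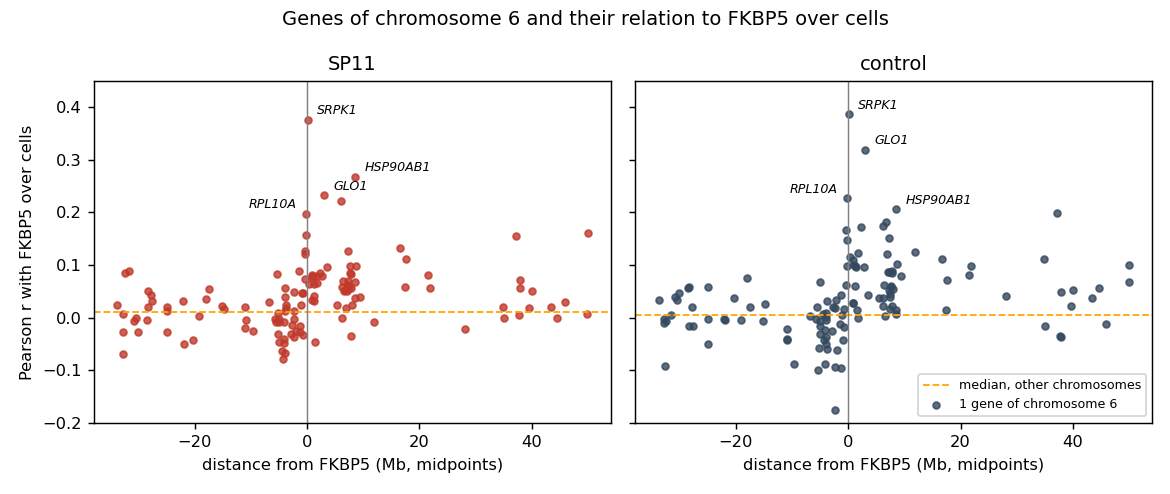
Pearson r with FKBP5 over thinned cells for genes of chromosome 6 within 50 Mb, by the distance of gene midpoints from that of FKBP5, in SP11 (left) and control (right), with the median of genes on other chromosomes as a dashed line. SRPK1 stands highest at 0.376 in SP11 and 0.387 in control, and genes more than 0.661 Mb before FKBP5 scatter around the dashed line.

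In molecules, SRPK1 was at 1428 CPM in the band of SP11 cells with most FKBP5 and 803 CPM in the band with least, a ratio of 1.78 (1.62 to 1.96), and in control at 1602 CPM and 1063 CPM, a ratio of 1.51 (1.40 to 1.63). HSP90AB1 had a ratio of 1.25 in SP11 (1.19 to 1.31) and 1.12 in control (1.07 to 1.18). The intervals of GLO1, RPL10A and TOMM6 also lay above 1 in both libraries. Those of 2 near genes did not: SRSF3, 0.949 Mb after FKBP5, had 1.08 in SP11 (0.93 to 1.25) and 0.97 in control (0.84 to 1.12). PIM1, 1.52 Mb after it, had 0.71 in SP11 (0.48 to 1.05) and 0.98 in control (0.61 to 1.58). HSP90AA1, on chromosome 14, had 1.04 in SP11 (0.98 to 1.11) and 0.99 in control (0.91 to 1.08). The other 9 co-chaperones summed gave 1.07 in SP11 (0.98 to 1.17) and 1.09 in control (1.00 to 1.19), and none of them has its gene on chromosome 6. The r of these 9 with FKBP5 ran from -0.015 to 0.053 in SP11 and from -0.028 to 0.089 in control.

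The relation was looked for in the other members too. Within 10 Mb of each, the share of genes with r over 0.05 in both libraries was 32.9% for FKBP5 (27 of 82) and at most 3.70% for the other 9. Those 9 had at most 1.37 thinned molecules per SP11 cell and 1.69 per control cell, against 2.14 and 4.28 for FKBP5. Over Scrublet removal, removal of the 20-cell cluster, each phase alone and 4 other thinning seeds, r of SRPK1 with FKBP5 ran from 0.341 to 0.430 in SP11 and from 0.338 to 0.445 in control. For GLO1 it ran from 0.079 in G1 cells to 0.314 in SP11 and from 0.268 to 0.356 in control. The share of G2M cells was 37.0% in the highest and 46.1% in the lowest FKBP5 band of SP11, and 28.3% and 41.1% in those of control, and their part in the relation was not tested. Median depth before thinning was 11140 UMIs in the highest and 11779 in the lowest band of SP11, and 18148.5 and 18561 in those of control. Between libraries these neighbours had unlike ratios, and as a set they stood near all measured genes. Of the 27 with r over 0.05 in both libraries, 4 were at least 1.5-fold higher in SP11 and 8 lower. Of all measured genes 10.7% were higher and 38.4% lower. The median log2 ratio of the 27 was -0.32, beside -0.35 for all measured genes. PPARD, a nuclear receptor gene, was lowest at -1.54 and CCND3, a cyclin gene, highest at 1.75, while RPL10A stood at -0.85, SRPK1 at -0.32 and HSP90AB1 at 0.34.

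Member ratios, the relation to HSP90AA1, the shares of 4 members, the FKBP4 phase ratio and r of 3 neighbours with FKBP5 were recomputed without shared barcodes; cluster levels and the other values were not. The log2 ratio of FKBP5 was then -1.05, and the summed HSP90AA1 band ratio was 1.11 in SP11 and 1.11 in control. FKBP5 was found in 79.7% of 670 thinned SP11 cells and 94.2% of 863 thinned control cells, and SUGT1 in 54.9% of SP11 cells and 29.7% of control cells. The log2 ratio of G2M to G1 FKBP4 level was 0.37 in SP11 (0.14 to 0.60) and -0.20 in control (-0.38 to -0.02). SRPK1 had r of 0.386 in SP11 and 0.405 in control with FKBP5. Cells with the same barcode in both libraries had profiles that correlated at a median of 0.001, as did other pairs at 0.001.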

How the data were processed

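Both libraries were made on the 10x Genomics platform, and for each the authors deposited raw UMI counts by gene and barcode. Cell Ranger 7.1.0 is named in the file headers and GRCh38 (hg38) in the submitters' processing notes. The treatment label set the groups, with 1 library each, so cells were not treated as replicates. Cells with at least 200 genes and at most 20% mitochondrial UMIs were kept, as in the study's methods, with 9498802 UMIs in SP11 and 19375163 in control. Doublets were called with Scrublet (scanpy 1.11.5; 21 SP11 and 45 control barcodes) and kept.

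UMIs were summed over kept cells and set as CPM. Ratios carry an exact interval (Clopper-Pearson) on how molecules split, single levels an exact Poisson interval and shares of cells an exact binomial one. Measured genes had 50 or more summed UMIs; 1.5-fold was used as a size. Correlations used log2(UMIs + 1) of cells thinned to 4400 UMIs (seed 11), and genes compared with FKBP5 had 150 or more thinned UMIs in each library. Clusters (2000 variable features, 10 components, resolution 0.5) and phases came from Seurat 5.3.0 in R 4.3.3. Intronic length came from GENCODE 44, which held 99.7% of measured genes, and promoters from RefSeq GRCh38.p14. The code was tested on simulated data.

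The 10 members, the gene lists and the marker lists were chosen with earlier results of these data known. Named genes are the members, the 4 HSP90 paralogs, genes at the ends of each list and the 5 most like the summed members; others, such as HSPA1A, HSPA1B, NR3C1, the markers and the genes near FKBP5, were chosen after their values were seen. Alternatives were TMM (edgeR 4.0.16) and DESeq2 1.42.0 factors computed on the counts, other totals, cell filters, thinning depths, seeds and phases. Removal of shared barcodes, of the 20-cell cluster, and of shallow barcodes in the relation to HSP90AA1, and the comparison by distance from FKBP5 were added after the data were seen. Mouse samples were not analysed here.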

Additional observations from a re-analysis of the deposited data

Results flagged for a closer look

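FKBP4 moved in opposite ways with the cell cycle in the 2 libraries. Its log2 ratio of G2M to G1 level was 0.40 in SP11 (0.19 to 0.62) and -0.21 in control (-0.38 to -0.04), a difference of 0.61. With 1 library in each group the difference was not tested, and it was singled out because both counting intervals lay clear of 0 on opposite sides, which held for FKBP4 alone among the 10. SP11 G2M cells had a median of 11992 UMIs and G1 cells 8771.5, and control G2M cells had 20823 and G1 cells 14979; the part of depth was not tested.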

How the results depend on the processing

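The median log2 ratio of the 10 co-chaperones was 0.20 and became 0.54 with TMM factors, 0.56 with DESeq2 size factors and 0.36 with the intronic trend subtracted; these alternatives brought the median of all measured genes to between -0.01 and 0.01. The number at least 1.5-fold higher became 5 with DESeq2 size factors, and the number lower became 0 with the intronic trend subtracted. AHSA1, CDC37 and PTGES3 lay below 0 in 10, 9 and 10 of 12 alternatives, while STIP1, CHORDC1 and SUGT1 stayed at least 1.5-fold higher in all 12. The summed HSP90AA1 band ratio in SP11 was 1.02 with another thinning seed, 1.20 with HSP90AB1 in place of HSP90AA1, and 1.29 within G1, 1.20 within S and 0.95 within G2M cells. In control it was 0.97 at a thinning of 2200 UMIs, 1.23 with HSP90AB1, 1.32 within G1 and 0.90 within S cells. The median r in SP11 was 0.077 without thinning, 0.072 within G1, 0.056 within S, -0.013 within G2M cells and 0.011 without the 20-cell cluster. In control it was 0.012 at 2200 UMIs, 0.128 without thinning, 0.048 with another seed, 0.056 with HSP90AB1, 0.096 within G1 and 0.050 within G2M cells. The cause of these differences was not tested. With HSP90AB1 as the partner, the sum includes FKBP5, its neighbour on chromosome 6, at r of 0.268 in SP11 and 0.206 in control. The r of the other 9 with HSP90AB1 ran from -0.046 to 0.084 in SP11 and from -0.058 to 0.132 in control. For single genes, with values beyond the log2 ratios included, 91 alternative values stayed within the counting interval of the main value and 69 left it. For the log2 ratio alone, the alternatives that left it ranged from 2 of 12 for AHSA1, FKBP4, PPID and CHORDC1 to 5 of 12 for FKBP5. No paired analysis was possible because each group has 1 library. Depth limits the members with fewest molecules, 166 of PPID in thinned SP11 cells.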
